A study of Saccharomyces cerevisiae with 27 samples.

Results

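Break-seq in the yeast Saccharomyces cerevisiae was described over 239 peaks, which are all the regions in the deposited list of peaks called for hst34 against WT. The signal of each peak was compared between 2 hst34 libraries and 2 WT libraries. The hst34 strain has the genotype hst4-delta HST3-FRB: HST4 is deleted and Hst3 carries the FRB tag. The WT strain is labelled WT anchor away. In the anchor-away method, rapamycin joins an FRB-tagged protein to an abundant anchor that leaves the nucleus, so the tagged protein is removed from the nucleus. Both strains received rapamycin for 3 h before harvest, during log-phase growth in rich medium at 30 °C, so the drug is shared by both groups and each strain enters as a single genotype. The whole series holds 27 samples, of which the 4 Break-seq libraries carry the peak values.

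Hst3 and Hst4 are sirtuins, NAD-dependent deacetylases that remove the acetyl group from lysine 56 of histone H3. That acetyl group is placed on new histones during DNA replication and is normally taken off before the next round. Yeast that lacks both enzymes is known for chromosome loss, spontaneous DNA damage and sensitivity to replication stress. Break-seq labels free DNA ends inside agarose plugs, before any shearing, and sequences the labelled fragments, so that a region with more ends gives more reads. No genome sequence was used here, so peaks are given by their position in the sacCer3 build, which the RefSeq R64 gene table shares, and by the genes they overlap by at least 1 bp.

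Signal is given in RPM, the reads in a peak per 1000000 reads of the library, and as RPM per kb of peak. The library totals behind the RPM values were 1130995 and 943615 reads for hst34 replicates 1 and 2, and 1093397 and 831451 for WT replicates 1 and 2. A peak held between 75 and 8468 reads in the hst34 libraries and between 28 and 3060 reads in the WT libraries. Nothing states that the 2 libraries of a group came from separate cultures, so the spread between them may be technical.

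In every one of the 239 peaks, both hst34 libraries stood above both WT libraries. The peak caller had compared these same libraries, so this direction was fixed when the peaks were chosen, and so was the background: 239 of 239 peaks, 100%, passed limma's test in the higher direction at an adjusted p under 0.05. That count is therefore a description, and nothing is read from it. The size of the difference was narrow in range, and its lower side was also limited by that choice of peaks. The log2 ratio of the group means, hst34 over WT, had a median of 0.77, with the middle 50% of peaks between 0.68 and 0.87. In linear terms 194 peaks had a ratio between 1.5 and 2, 22 were above 2 and 23 were below 1.5. The lowest ratio was 1.22 and the highest 3.74. Taken library by library, the median log2 ratio was 0.69 for hst34 replicate 1 over WT replicate 1, 0.74 for hst34 replicate 1 over WT replicate 2, 0.82 for hst34 replicate 2 over WT replicate 1, and 0.86 for hst34 replicate 2 over WT replicate 2.

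The table gives 1 summed value per peak and library, so density is a mean over a peak and its profile inside the peak was not measured. Median density was 146.8 and 158.7 RPM per kb in the hst34 libraries, against 91.5 and 88.4 RPM per kb in the WT libraries. A library spread evenly over the annotated span of the 16 nuclear chromosomes would have 83.0 RPM per kb. Over all peak length, the density was 1.87 and 2.09 times that even level in hst34 and 1.11 and 1.07 times in WT. In WT the same regions lay close to the level of an even library, while in hst34 they stood near double it. The peak caller chose regions high in hst34 against WT, so this contrast follows in part from that choice and is a description. Outside the peaks the mean density was at most 77.4 and 76.0 RPM per kb in hst34, against 82.3 and 82.5 RPM per kb in WT. Those outside values and the even level are upper limits, because reads on mitochondrial or unannotated sequence are counted in the total but not in the length. The multiples of the even level are therefore lower limits.

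Density varied little from peak to peak. From the 5th to the 95th percentile of peaks it ran from 129.8 to 173.4 RPM per kb in hst34 replicate 1 and from 136.8 to 190.2 in hst34 replicate 2, against 76.0 to 110.2 in WT replicate 1 and 74.2 to 107.0 in WT replicate 2. A peak's summed signal followed its width (Spearman's rho 0.996 over 239 peaks, which share the same 4 libraries). The hst34 replicate 2 library exceeded hst34 replicate 1 in 194 peaks, by a median of 0.12 log2 units, and WT replicate 1 exceeded WT replicate 2 in 143 peaks, by a median of 0.05.

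**Figure D1:**
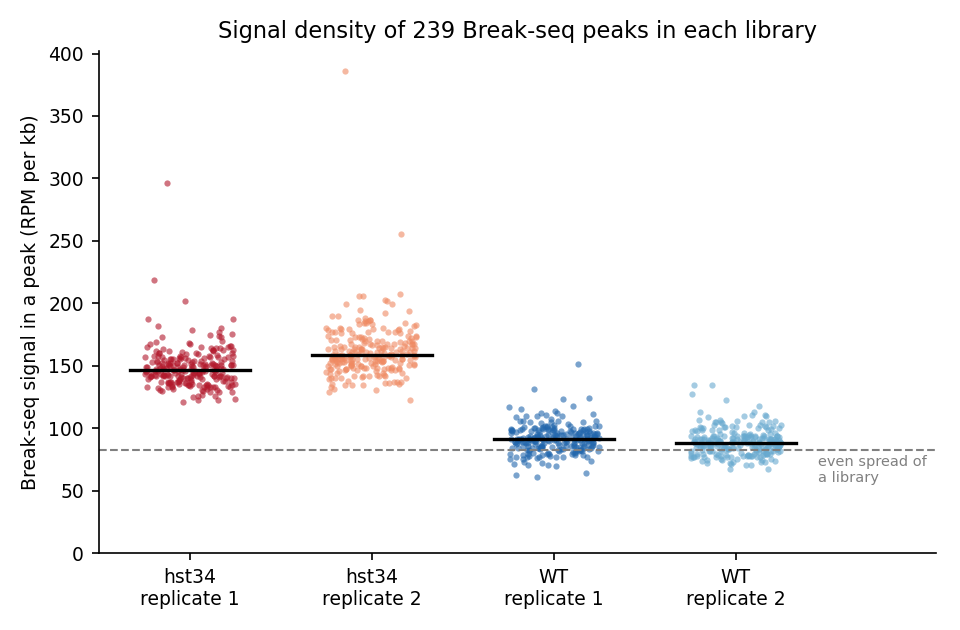
Break-seq signal density (RPM per kb) of the 239 peaks in the 2 hst34 libraries and the 2 WT libraries; each point is a peak, the black bar is the median and the dashed line is an evenly spread library at 83.0 RPM per kb. The hst34 medians lie at 146.8 and 158.7 and the WT medians at 91.5 and 88.4.

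Summed over all peaks, the signal was 133379 and 148763 RPM in hst34, against 78992 and 76244 RPM in WT. These sums are 13.3% (95% Wilson interval 13.3 to 13.4) and 14.9% (14.8 to 14.9) of the reads in the hst34 libraries, and 7.90% (7.85 to 7.95) and 7.62% (7.57 to 7.68) of those in the WT libraries. Intervals cover counting error only. The difference of the log2 sums was 0.86, with a pooled SD of 0.08 between replicates (n = 2 each). An exact two-sided permutation test of 2 libraries against 2 cannot go below p = 0.333, the value it gave here. No spike-in is named for Break-seq, so RPM shows where the reads of a library lie and not how many DNA ends the cells had.

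Peak width ran from 0.5 to 31.75 kb with a median of 2.25 kb, on a 250 bp grid. Together the peaks covered 858.5 kb, which is 7.12% of the annotated span. The 66 peaks of 1 kb or less covered 54.5 kb, whereas the 18 peaks of 10 kb or more covered 252.75 kb, 29.4% of the peak length. Over the whole list the ratio had a Spearman's rho of -0.01 with width, and its spread exceeded the counting error in the wider classes. In the 66 narrowest peaks the SD of the log2 ratio was 0.14, and their median counting error was also 0.14. Among the 18 widest peaks it was 0.30, against a median counting error of 0.04, and without the 2 peaks of highest ratio it was 0.14 over 16 peaks. In the classes from 2.5 to under 5 kb and from 5 to under 10 kb the SD was 0.15 and 0.18, against median counting errors of 0.08 and 0.05. These widest peaks had a median log2 ratio of 0.87, against 0.79 in the narrowest. The 60 widest peaks held 63.7% and 64.8% of the reads in peaks in hst34, against 61.3% and 60.8% in WT (exact permutation p = 0.333, 0.417 after adjustment over 5 such shares). Without the 5 peaks of highest mean signal that difference was 1.16 percentage points, against 3.18 with them.

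**Figure D2:**
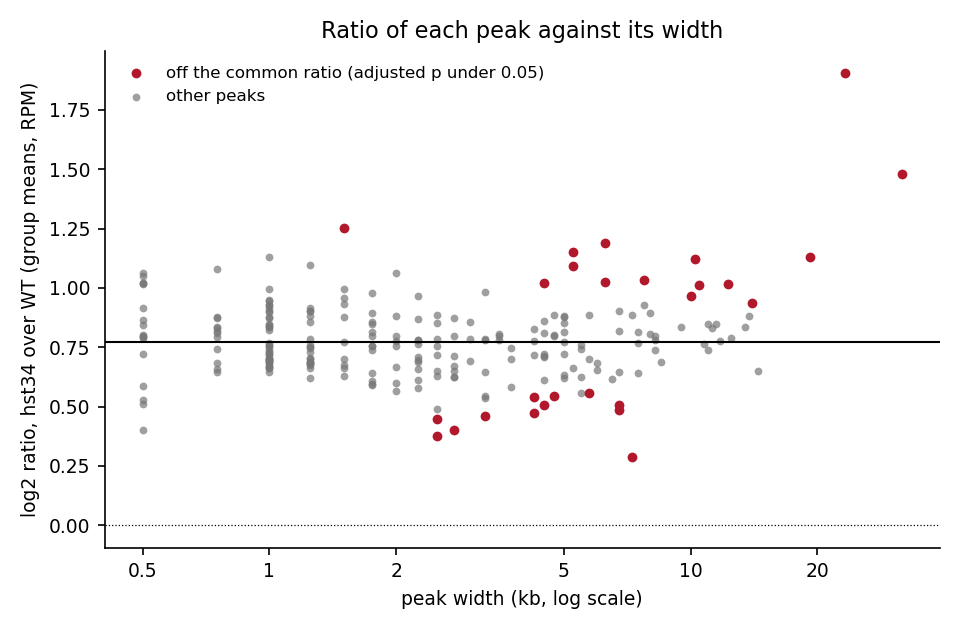
Log2 ratio of group means (hst34 over WT, RPM) of each of the 239 peaks against its width in kb on a log scale; the line is the median, 0.77, and red points are the 27 peaks that differed from the median ratio, the common ratio, in limma on centred values. The 2 widest peaks, 31.75 and 23.25 kb, lie at 1.48 and 1.90.

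Peaks that departed from the median ratio of the list, called the common ratio here, were sought by centring each library on its median log2 peak signal and testing with limma (no pseudocount, Benjamini-Hochberg adjustment). In this fit 27 of 239 peaks, 11.3%, differed from the common ratio, 15 above it and 12 below it. The fit was chosen after the values were seen. Its SE and adjusted p rest on a spread shared by peaks of like signal, not on the peak's own replicates. They do not measure how far the replicates of a given peak differ, nor the spread between separate cultures. The spread was pooled over all peaks, and leaving out 1 library lowered the count to 9 without hst34 replicate 2 and to 13 without WT replicate 2. It was 25 without hst34 replicate 1 and 19 without WT replicate 1. All 27 kept their sign in each of these fits, but most of them were not called in every one. Each fit reused libraries that had chosen the 27 peaks, so the kept sign was largely fixed in advance and is no separate support.

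The peak with the highest ratio lay on chromosome VII from 460251 to 483500. It had 6886 and 8974 RPM in hst34, against 2068 and 2170 RPM in WT. Both hst34 libraries were more than 3 times either WT library, and the densities were 296.2 and 386.0 RPM per kb in hst34 against 88.9 and 93.3 in WT. The log2 ratio was 1.90, which is 1.13 ± 0.05 (SE, limma on centred values, adjusted p = 7.1e-66) above the common ratio. The region holds PMA1, the plasma membrane proton pump and one of the most highly transcribed yeast genes, and LEU1 of leucine biosynthesis. It also holds PDR1, a transcription factor of multidrug resistance, ERG4 of the last step of ergosterol synthesis, PUF4, an RNA-binding protein, and SCL1, a proteasome subunit. The peak ends to the left directly against a 1.5 kb peak over CKB1, JAC1 and ATE1 with a log2 ratio of 0.96.

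Second in ratio and widest of all was the peak from 1019001 to 1050750 near the right end of the same chromosome. Its signal was 6940 and 8120 RPM in hst34, against 2799 and 2604 RPM in WT, with no overlap between the groups. The log2 ratio was 1.48, or 0.71 ± 0.05 above the common ratio (SE, limma on centred values, adjusted p = 7.2e-32). The peak covers SAY1, a sterol deacetylase, MES1, the methionyl-tRNA synthetase, and TAF1 of the general transcription factor TFIID. Also inside are YTA7, a chromatin-bound ATPase, SLH1, a ribosome-associated helicase, RNH70, an RNA exonuclease, and SCW4, a cell wall protein. A neighbouring peak from 1054001 to 1059250, over the drug transporter gene YOR1 and the glucanase gene BGL2, had a log2 ratio of 1.09.

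Together these 2 peaks held 10.4% and 11.5% of the reads in peaks in hst34, against 6.16% and 6.26% in WT, on 6.41% of the peak length. Chromosome VII as a whole held 16.3% and 17.6% in hst34, against 12.5% and 12.8% in WT, and this share was singled out after the values were seen (exact permutation p = 0.333, adjusted 0.417). Without the 5 peaks of highest mean signal the difference of 4.32 percentage points became -0.04. The lowest ratio of the list also lay on chromosome VII, from 434501 to 441750, less than 20 kb from the peak with the highest. It had 937 and 1031 RPM in hst34, against 811 and 801 RPM in WT, a log2 ratio of 0.29. Its WT densities, 111.9 and 110.5 RPM per kb, stood above the WT medians, and its hst34 densities, 129.3 and 142.2 RPM per kb, stood below the hst34 medians. It was 0.48 ± 0.07 below the common ratio (SE, limma on centred values, adjusted p = 7.0e-10). Its genes include RPL24A and RPL30 of the large ribosomal subunit, HOP2 of meiotic recombination, AGA2 of mating agglutination, SCW11 of daughter-cell separation and a tRNA gene.

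On chromosome XIII a peak of 19.25 kb from 723251 to 742500 had 3604 and 3842 RPM in hst34, against 1766 and 1631 RPM in WT. Its log2 ratio was 1.13, and both hst34 libraries were about double the WT libraries. It covers RRP5, needed for ribosomal RNA processing, RPS10B of the small ribosomal subunit, RNA1, the GTPase activator of nuclear transport, FUS2 of cell fusion in mating, and RNH1, which encodes RNase H1, the enzyme that removes RNA from RNA-DNA hybrids. Next to it, the peak from 712501 to 722750 had a log2 ratio of 1.12 and covers MRE11, a nuclease of double-strand break repair, and UBP8 of the SAGA complex. Both were above the common ratio, by 0.37 ± 0.06 and 0.36 ± 0.06 (SE, limma on centred values, adjusted p = 1.6e-08 and 1.5e-06).

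HST4 is deleted in hst34, and it overlapped no peak. Of all nuclear protein-coding genes, 569 of 6002, 9.48%, overlapped one. HST4 (YDR191W, chromosome IV, 842337 to 843449) lies in a gap of 1250 bp between 2 peaks, 86 bp from the end of the peak on its left and 51 bp from the start of the peak on its right. The median gap between neighbouring peaks was 2.25 kb. Since HST4 is in no peak, the table holds no Break-seq value with which to check the deletion in these libraries. In other libraries of the same labels, the deposited HST4 RNA signal was 9.69 and 0.73 in hst34, against 92.5 and 93.3 in WT. The DRIP-seq libraries, which sample DNA, did carry signal over HST4: 15.3 and 53.1 in the libraries labelled hst34, against 102.3 and 72.4 in WT, and after RNase H 79.9 and 99.5 in those labelled hst34, against 53.4 and 58.7 in WT. Without RNase H the libraries labelled hst34 were thus below both WT libraries but not without signal, and after RNase H they were above both. The presence of signal, and its level after RNase H, go against the label at this gene. The peak to the left, from 836001 to 842250, had 984 and 1212 RPM in hst34, against 480 and 483 RPM in WT. With a log2 ratio of 1.19 it ranked 4 of 239, and it was 0.42 ± 0.07 above the common ratio (SE, limma on centred values, adjusted p = 5.8e-07). It covers CCT6, a subunit of the cytosolic chaperonin, SLY1 of vesicle transport, and RVB1, a helicase of chromatin remodelling complexes. On the other side, the peak from 843501 to 855750 had 2134 and 2469 RPM in hst34, against 1227 and 1051 RPM in WT. Its log2 ratio was 1.01, and it covers NUP42 of the nuclear pore, the mitochondrial helicase gene MSS116 and REF2 of RNA 3′ end formation.

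Further out on the same stretch the ratio was lower on both sides. The peak from 821751 to 835750, over the cohesin loader gene SCC2, the histone acetyltransferase subunit gene SAS4 and CDC1, had a log2 ratio of 0.94. The peak from 856001 to 864250, over SPC19 of the kinetochore and COQ4 of ubiquinone synthesis, had 0.78. The 4 peaks together ran over 42.5 kb, and no other peak lay within 50 kb of HST4. Whether the altered locus itself contributes to these values was not tested.

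HST3, the other altered locus, overlapped a peak. The gene (YOR025W, chromosome XV, 378219 to 379562) overlaps a peak from 378001 to 379000 with 150.3 and 148.4 RPM in hst34, against 78.7 and 71.0 RPM in WT. The log2 ratio was 1.00, which ranked 23 of 239, with a counting error of 0.15, and limma gave no call of a difference from the common ratio (0.24 ± 0.18, adjusted p = 0.63). As background, 569 of 6002 nuclear protein-coding genes, 9.48%, overlapped a peak. HST3 lies inside the stretch with the most peaks, 13 over 67.25 kb from 362001 to 429250. These 13 had log2 ratios between 0.62 and 1.00, and their genes include EXO1, an exonuclease of DNA repair, BUB3 of the spindle checkpoint, STI1, an Hsp90 co-chaperone, and RAT1, the nuclear RNA exonuclease that ends transcription.

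**Figure D3:**
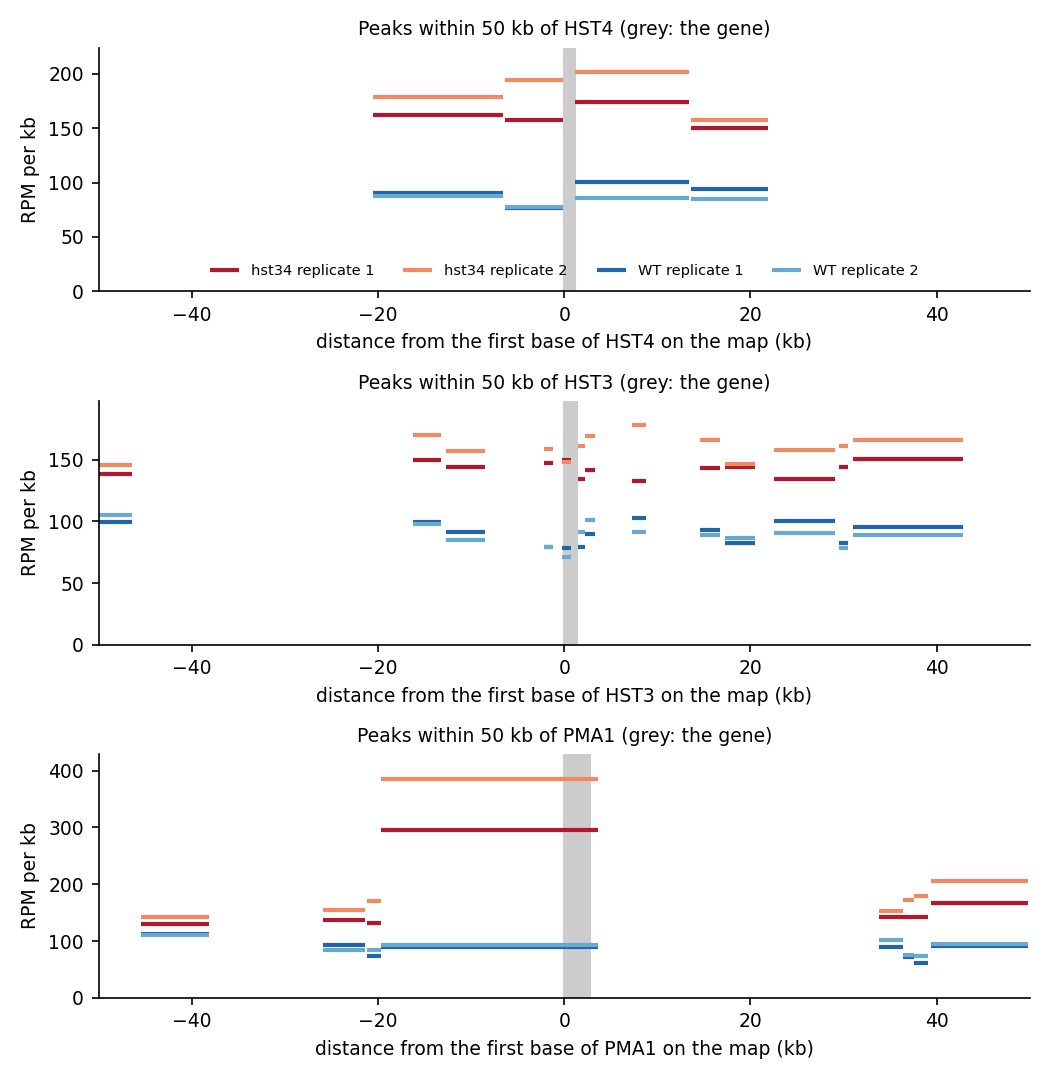
Break-seq signal density (RPM per kb) of the peaks within 50 kb of HST4, HST3 and PMA1, plotted against the distance in kb from each gene's first base on the map; red and orange lines are hst34 replicates 1 and 2, dark and light blue lines are WT replicates 1 and 2, and grey marks the gene. HST4 lies in a gap of 1250 bp between 2 peaks, and the peak over PMA1 reaches 296.2 and 386.0 RPM per kb in hst34 against 88.9 and 93.3 in WT.

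The other peaks at the extremes of ratio were smaller. Ranked 3 in ratio was a 1.5 kb peak on chromosome VII from 517501 to 519000 inside MSB2, which encodes a mucin-like osmosensor. It had 212.2 and 270.2 RPM in hst34, against 93.3 and 109.4 RPM in WT, a log2 ratio of 1.25. MSB2 was touched by 3 peaks, with log2 ratios of 1.10, 1.25 and 1.01. The peak from 696501 to 701750 on chromosome XV, over ULS1, a DNA translocase that acts on SUMO-modified proteins, and the thiamine transporter gene THI72, had 840 and 925 RPM in hst34, against 405 and 390 RPM in WT. Its log2 ratio was 1.15.

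At the low end, a peak on chromosome VII from 635001 to 637500, over UPF3 of nonsense-mediated decay and SMD1 of the spliceosome, had 352 and 338 RPM in hst34, against 284 and 248 RPM in WT (log2 ratio 0.37). The 0.5 kb peak in PET112, a mitochondrial tRNA amidotransferase gene on chromosome II, had 88.4 and 79.5 RPM in hst34, against 65.8 and 61.3 RPM in WT (0.40). A peak over URA5 of pyrimidine synthesis and PML39 of messenger RNA retention on chromosome XIII had 420 and 370 RPM in hst34, against 295 and 302 RPM in WT (0.40). Among these 3, limma on centred values put all but the PET112 peak below the common ratio, and the PET112 peak had a counting error of 0.17 and an adjusted p of 0.43. None of the 3 was called in every fit that left out a library.

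Wide peaks were not always high in ratio. The 14.5 kb peak on chromosome X from 505001 to 519500 had 2053 and 2367 RPM in hst34, against 1452 and 1361 RPM in WT. Its log2 ratio of 0.65 lay under the median of the list. It covers POL32, a subunit of DNA polymerase delta, NUP85 of the nuclear pore, the chloride channel gene GEF1 and the initiator tRNA gene IMT3.

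Peaks were unevenly spread over the chromosomes. Chromosome IV had 41 peaks over 11.7% of its annotated length, chromosome X 27 over 11.3%, chromosome VII 21 over 10.0% and chromosome XV 32 over 9.33%. Chromosome III had 6 peaks over 9.96% of its length. At the other end, chromosome V, with 577 kb of annotated length, had a single peak of 1.25 kb in FAA2, a fatty acid activation gene, which is 0.22% of it. Chromosome XI had 5 peaks over 1.85% and chromosome VI 3 over 2.32%. Per Mb of chromosome, the number ran from 1.73 on V to 36.3 on X. The ratio differed little by chromosome: median log2 ratios ran from 0.66 on chromosome XI to 0.83 on chromosome III. The SD of the log2 ratio on chromosome VII was 0.37, and on the other chromosomes with more than 1 peak it lay between 0.08 and 0.19.

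**Figure D4:**
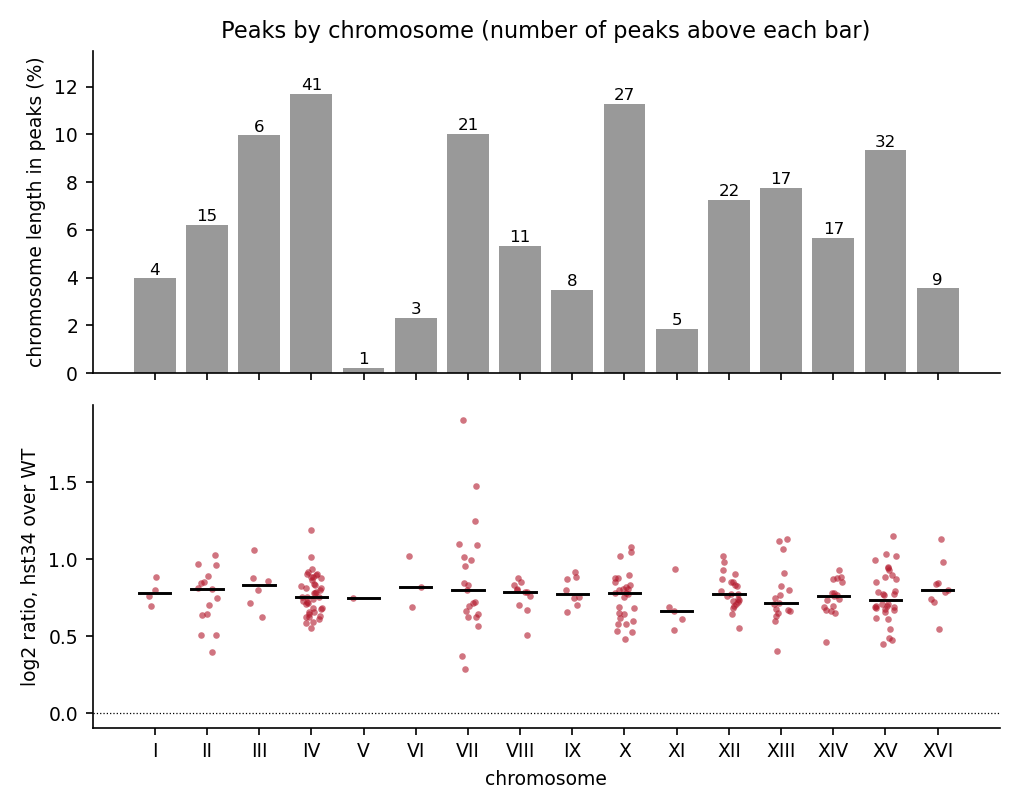
Upper plot: share of each chromosome's annotated length that lies in peaks (%), with the number of peaks above each bar. Lower plot: log2 ratio (hst34 over WT) of each peak by chromosome, with the median as a bar; chromosome V has 1 peak, and the points above 1.4 are the 2 wide peaks on chromosome VII.

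The peak of highest mean density on each chromosome lay between 121.9 RPM per kb, in FAA2 on V, and 216.1, over PMA1 on VII, with the other 14 between 127.3 and 154.4. The peak on VI, from 264751 to 269250 over IRC7, a sulfur amino acid lyase gene, had 743 and 911 RPM in hst34, against 412 and 404 RPM in WT. Its log2 ratio was 1.02, and limma on centred values put it above the common ratio (0.25 ± 0.08 SE, adjusted p = 0.016). It was not called in every fit that left out a library. The peak on XI, from 439501 to 443750 over VPS1, a dynamin-like gene, and the poly(A) polymerase gene PAP1, had 666 and 650 RPM in hst34, against 468 and 435 RPM in WT. With a log2 ratio of 0.54 it was among the 12 peaks below the common ratio (limma on centred values, adjusted p = 0.0496). With the replicate block the adjusted p in limma was 0.098, and the peak was not called in every fit that left out a library. Those on I (DRS2, a lipid flippase gene), III (SPB1 of ribosome assembly), IV (FDC1, a decarboxylase gene), X (ILV3 of branched amino acid synthesis), XIV (URE2, a regulator of nitrogen use) and XV (RPO31, the largest RNA polymerase III subunit) had log2 ratios of 0.69, 0.86, 0.64, 0.53, 0.65 and 0.85, and none of them was called off the common ratio. On 5 chromosomes the densest peak was one of 0.5 kb, as in ENT2, an endocytosis adaptor gene on XII, AQY1, a spore aquaporin gene on XVI, and FSH1, a hydrolase gene on VIII. On IX it overlapped the noncoding RNAs ICR1 and PWR1, which act upstream of the flocculin gene FLO11. Another peak, of 2 kb, reached FLO11 itself and ICR1, with 261.7 and 354.0 RPM in hst34 against 170.1 and 184.0 RPM in WT.

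Many peaks lay side by side. Of the 223 gaps between neighbours on a chromosome, 30 had no base between the peaks, 83 were under 1 kb and 165 were at most 20 kb. Joined across gaps of up to 20 kb, the 239 peaks formed 74 stretches, of which 27 held 1 peak and 17 held 5 or more. Those 17 held 120 peaks. After the 13 peaks around HST3, the stretches with the most peaks were 12 over 36.25 kb on chromosome X from 251501 to 287750 and 10 over 53.0 kb on chromosome XII from 530001 to 583000.

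With the position along a chromosome, the summed width of peaks varied more than the ratio did. Each peak was placed, with its whole width, by its edge nearer to a chromosome end. A wide peak can reach into the next part, so the shares below are not exact coverage. Peaks placed within 20 kb of a chromosome end numbered 14, with a summed width equal to 6.48% of the annotated length of that part. For the 150 peaks at 200 kb or more from an end it was 9.54%. The summed width was equal to 9.56% at 20 to 50 kb, 1.97% at 50 to 100 kb and 4.18% at 100 to 200 kb. The 31.75 kb peak on chromosome VII is counted whole at 20 to 50 kb, although it reaches past 50 kb. That raises the first of these values and lowers the second. The median log2 ratio was 0.84 within 20 kb, 0.80 at 20 to 50 kb, 0.73 at 50 to 100 kb, 0.71 at 100 to 200 kb and 0.78 at 200 kb or more. Peaks within 20 kb of an end held 4.66% and 4.92% of the reads in peaks in hst34, against 5.03% and 4.75% in WT, and the groups overlapped (exact permutation p = 0.667, adjusted 0.667). On chromosome XII, which carries the ribosomal DNA, 22 peaks held 8.76% and 8.43% in hst34, against 8.95% and 9.15% in WT (exact permutation p = 0.333, adjusted 0.417). None of the 239 peaks overlapped an annotated ribosomal RNA gene, 0 of 12, beside 9.48% of protein-coding genes. Uniquely placed reads, as the library columns are named, cannot fall on identical copies of such genes. The count therefore does not show whether DNA ends lay there.

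Most peak length was coding, as is most of the yeast genome. Protein-coding genes took up 77.5% of the peak length and 72.9% of the annotated span, and the centre of 174 of 239 peaks lay in one. Of the peaks, 3 overlapped no protein-coding gene, 65 overlapped 1, and 171 overlapped 2 or more. The most, 15, lay in the widest peak. Of 275 tRNA genes 4 overlapped a peak, 1.45%, and all 4 lay wholly inside. Of protein-coding genes 9.48% overlapped a peak and 4.67% lay wholly inside one. The median lengths of the annotated genes were 73 bp for tRNA and 1200 bp for protein-coding genes. The 4 peaks with a tRNA gene held 3.41% and 3.47% of the reads in peaks in hst34, against 4.12% and 4.13% in WT (exact permutation p = 0.333, adjusted 0.417), and their log2 ratios were 0.29, 0.65, 0.70 and 0.77. Small nucleolar RNA genes were in peaks in 11 of 76 cases, 14.5%, and all 11 lay wholly inside. Among these 11 were the genes of the SNR72 to SNR78 cluster, which guides ribosomal RNA modification and lies in 1 peak of 8.25 kb on chromosome XIII.

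For gene lists by function, the share of members that overlapped a peak ran from 0 to 20%, beside the 9.48% of all protein-coding genes. Of 138 cytosolic ribosomal protein genes 4 overlapped a peak, 2.90%: RPL24A, RPL30, RPS10B and RPS22B. Of 25 heat shock and chaperone genes 4 did, 16%: SSE2, HSP78, CPR6 and STI1, in peaks with log2 ratios between 0.70 and 0.97. HTA2 was the 1 of 11 histone genes, in a peak with 1223 and 1237 RPM in hst34 against 822 and 753 RPM in WT. DUN1, the checkpoint kinase that raises nucleotide supply after DNA damage, was the 1 of 17 DNA damage response genes. Its peak had 615 and 658 RPM in hst34, against 384 and 396 RPM in WT. Of 17 genes for histone H3 lysine 56 acetylation and the sirtuins, HST3 alone overlapped a peak. MSB2 was the 1 of 23 cell wall and mucin-like genes, and FLO11 the 1 of 5 flocculin genes. In 6 of 13 lists no member overlapped a peak: the 16 hexose transporter, 24 seripauperin, 12 COS, 8 telomeric helicase, 11 maltose and isomaltose, and 21 glycolysis and fermentation genes. The library columns are named as uniquely placed reads, and many of these genes have near-identical copies on which such reads cannot fall. The part of this in the counts was not tested.

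RNA and DRIP-seq values of the genes in peaks were set beside those of all genes. The 542 deposited gene intervals that overlapped a peak had a median RNA signal of 329 and 241 in hst34, against 306 and 340 in WT. Over all 5297 genes the medians were 361 and 263 in hst34, against 314 and 358 in WT. The median log2 ratio of hst34 over WT in RNA was -0.11 over the genes in peaks and -0.09 over all genes, and in DRIP-seq, an assay meant to enrich DNA of RNA-DNA hybrids, it was -0.09 and -0.05. After RNase H, which removes the RNA of hybrids, it was 0.15 and 0.16. The median DRIP signal per kb of the 542 intervals was 100.9 and 88.3 with RNase H in the libraries labelled hst34. Without RNase H it was 78.5 and 75.7 there. In WT it was 102.3 and 77.1 with RNase H, against 93.4 and 79.3 without it. It was lower with RNase H in 1 of 4 pairs of the same label and number. The deposited DRIP values are scaled by a constant of each library. Such scaling can remove a change shared by most genes, so these medians do not show whether RNase H lowered the hybrid signal. Reads in genes were recovered from the step between the deposited DRIP values of each library, and no read count was given. By this reckoning DRIP-seq WT replicate 2 stood apart, with 83303106 reads in genes. The other 3 libraries without RNase H had between 1171635 and 2951246. PMA1 had an RNA signal of 39766 and 32294 in hst34, against 50377 and 47330 in WT. Its DRIP signal was 1818 and 1746 in the libraries labelled hst34, against 1002 and 485 in WT, and after RNase H it was 655 and 921 in those labelled hst34, against 1037 and 470 in WT. LEU1, in the same Break-seq peak, had a DRIP signal of 212.4 and 211.8 in the libraries labelled hst34, against 329 and 443 in WT. These RNA and DRIP values are levels, given without a test.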

How the data were processed

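The deposited Break-seq table is 1 list of peaks, called with MACS for hst34 against WT per its title, not per sample. Its library values proved to be RPM: the deposited values are whole reads times 1 constant per library (within 0.01), and 1000000 divided by that constant is a whole number, taken as the library total. No source used here says what that total counts. The columns are named as unique reads. Bowtie2 and the build sacCer3 are named in the submitters' processing notes, and reads were 75 bp paired-end, per the labels' protocols. DRIP-seq and RNA-seq values are the authors' deposited signal, read per gene interval and used as levels only; the RNA signal is normalised to a spike-in and to length, per its title.

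limma 3.58.1 (R 4.3.3) with trend tested log2(RPM + 68.3), the pseudocount being the 5th percentile of positive values, in peaks above 0 in at least 2 libraries, with Benjamini-Hochberg adjustment at 0.05. This scale understates the ratio of narrow peaks, so ratios in the text use group means without it, and departures from the common ratio use centred log2 RPM; both were chosen after the values were seen. Counting errors are from recovered reads, and PCR copies were not marked. Single values were tested by exact permutation (SciPy 1.17.1). Chromosome ends are base 1 and the last annotated gene. After each library was centred on its median, same-numbered libraries did not deviate together over peaks (r = -0.02). Centring removes any shift of a whole library, so this cannot show whether same-numbered libraries were prepared together. The main fit used no replicate block. Of the DRIP and RNA intervals, 5286 of 5298 matched the RefSeq gene table. Named peaks are the densest of each chromosome, the 5 highest and 5 lowest ratios, the 5 widest and the 5 of highest sum, 26 in all, with their genes and the listed genes in peaks. Some are given only by gene and ratio, and one is not reported here. Neighbours of those peaks, the other 2 MSB2 peaks, PMA1's and HST3's surroundings and chromosome VII were chosen after their values were seen. Members and lists were chosen with earlier results of these data known. NET-seq samples, Ty elements and sequences were not used here.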

Additional observations from a re-analysis of the deposited data

How the results depend on the processing

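All peaks tested were called higher under each pseudocount, without the filter and without a pseudocount, and 179 of 179 were without the 25% of peaks with the lowest signal; 238 were with the replicate block and 234 to 236 with 1 library left out, where the lone library is assumed to vary like the others. Centring each library removes the common ratio and left 42 called (34 higher, 8 lower), 44 with the replicate block and 27 without a pseudocount, 22 of these with the replicate block. The median log2 ratio with the pseudocount was 0.56 (0.51 to 0.62 leaving out a library), 0.77 without a pseudocount and -0.069 per 1000000 reads in peaks, a scaling that makes the sums equal. The log2 difference of summed signal was 0.98 from unscaled reads, 0.78 without the 5 peaks of highest mean signal and 0.78 to 0.94 leaving out a library; with the replicate block the exact permutation p was 0.5. Without those 5 peaks, share differences in percentage points (hst34 minus WT) were 1.16 for the 60 widest peaks, -0.37 for peaks with a tRNA gene, 0.21 for peaks within 20 kb of an end, 0.068 for chromosome XII and -0.043 for chromosome VII, against 3.18, -0.69, -0.10, -0.46 and 4.32 with them. They were 4.89 for the widest 10%, -0.76 within 500 bp of a tRNA gene and 0.048 at 10 kb from an end. Leaving out a library gave -0.24 to 0.035 at 20 kb, where the groups overlap. The cause of these shifts was not tested. The count-based tools planned for recovered reads were not run, nor was a stricter peak threshold, since the deposited table holds no peak score. No peak lay in the ribosomal DNA, where uniquely placed reads cannot fall on identical copies. With 28 reads in the thinnest WT value, depth limits the ratio of the narrowest peaks.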
